A study of Mus musculus with 4 samples.

Results

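The genes described here are 10 haematopoietic niche factors of marrow stroma, namely Cxcl12, Kitl, Angpt1, Csf1, Vcam1, Lepr, Ebf3, Foxc1, Nes and Grem1, taken by symbol from a count table of 54532 genes. Each symbol matched 1 row, and all 10 passed the filter on low counts that left 14963 genes to test. The libraries came from bone marrow mesenchymal stem cells (BMSCs), the stromal cells of marrow, of C57BL/6J mice aged 1 month and labelled male. The 2 libraries labelled rhebCKO came from Ucp1-cre; rhebFL/FL mice, in which Cre driven by the brown-fat gene Ucp1 deletes floxed Rheb in the brown adipocyte lineage. The 2 libraries labelled control came from rhebFL/FL littermates, which carry the same floxed alleles without Cre. The comparison asks whether marrow stromal cells differ when Rheb, the small GTPase that activates mTORC1, is deleted in another tissue.

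Stromal cells around marrow sinusoids hold blood stem cells and progenitors in place and feed them. They do so with the chemokine CXCL12, stem cell factor (encoded by Kitl), angiopoietin 1 and the macrophage growth factor CSF1, and with the adhesion molecule VCAM1. In mice these cells carry the leptin receptor, and the transcription factors EBF3 and FOXC1 keep their niche programme running. Nestin, an intermediate filament protein, has been used to mark perivascular stroma, and Gremlin 1, a secreted antagonist of bone morphogenetic proteins (BMPs), marks skeletal stem cells.

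Total counts ran from 17425669 to 19001878 per library. Rheb itself had 129 and 121 CPM (read counts scaled to library size) in libraries labelled rhebCKO, against 89.7 and 81.5 CPM in control libraries. Since Ucp1-Cre is meant to act outside these cells, this level does not check the deletion, and the group is called by its label. The summed level of the fibroblast marker list was 31088 and 33159 CPM in libraries labelled rhebCKO, against 29673 and 45081 CPM in control libraries, and its largest parts were the collagen genes Col1a1 and Col1a2. Pdgfrb, also on that list, had 586 and 595 CPM in libraries labelled rhebCKO, against 428 and 764 CPM in control libraries. Scarcer markers of the list included Thy1 at 26.0 to 31.0 CPM and Dcn at 4.84 to 12.7 CPM. Lum had 1.09 to 6.53 CPM, and S100a4 was below 1 CPM in every library. The 12 macrophage markers were also read, with summed levels of 9264 and 11632 CPM in libraries labelled rhebCKO, against 12002 and 8547 CPM in control libraries. Lyz2 was the largest part, with 5688 and 7193 CPM in libraries labelled rhebCKO, against 7768 and 5162 CPM in control libraries. The preparations were thus not stroma alone by their markers. In both groups the RNA of the inactive X chromosome followed the replicate number. Xist had 31103 counts in the replicate 1 labelled rhebCKO and 19502 in control replicate 1, while the replicates 2 had 2 (labelled rhebCKO) and 8 (control) counts. Ddx3y, on the Y chromosome, was at 0 counts in both replicates 1, whereas the replicates 2 held 1631 (labelled rhebCKO) and 1945 (control) counts, although the labels give all 4 animals as male. Values for each replicate number are therefore given beside the group values.

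The promoter sequences of Cxcl12, Ebf3 and Foxc1 are shown because these genes, with Kitl and Angpt1, kept 1 order across the 4 libraries (described further on). Each run is the 250 bases before the start annotated by RefSeq on GRCm38.p6, read 5′ to 3′ on the strand of the gene. Capitals mark the GC box GGGCGG, on either strand; the reverse complement reads CCGCCC, and boxes that overlap run together. The Cxcl12 run is chr6:117168285-117168534 (plus strand), the Ebf3 run is chr7:137314446-137314695 (minus strand) and the Foxc1 run is chr13:31806396-31806645 (plus strand).
Cxcl12: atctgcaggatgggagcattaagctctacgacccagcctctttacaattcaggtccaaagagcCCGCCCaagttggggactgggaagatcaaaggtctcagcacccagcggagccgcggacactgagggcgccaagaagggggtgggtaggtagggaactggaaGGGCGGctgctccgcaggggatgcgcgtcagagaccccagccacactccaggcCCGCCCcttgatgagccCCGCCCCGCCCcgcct
Ebf3: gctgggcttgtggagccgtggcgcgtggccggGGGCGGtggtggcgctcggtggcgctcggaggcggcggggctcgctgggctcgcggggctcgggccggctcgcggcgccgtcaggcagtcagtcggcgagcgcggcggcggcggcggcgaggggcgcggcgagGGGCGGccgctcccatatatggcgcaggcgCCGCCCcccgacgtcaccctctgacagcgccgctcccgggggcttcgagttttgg
Foxc1: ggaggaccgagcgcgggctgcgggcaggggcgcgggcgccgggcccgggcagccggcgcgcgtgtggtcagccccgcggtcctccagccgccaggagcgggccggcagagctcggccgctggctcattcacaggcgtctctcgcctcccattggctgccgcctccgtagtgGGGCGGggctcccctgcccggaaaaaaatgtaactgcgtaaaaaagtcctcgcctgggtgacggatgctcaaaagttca

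RefSeq promoters were found for 8 of the 10 genes, 9 promoters in all because Lepr has 2, and Angpt1 and Vcam1 were not among them. The Cxcl12, Ebf3 and Foxc1 promoters held 64.4%, 80.0% and 70.8% G or C, against a median of 52.4% over 32851 promoters. A GC box lay in 8 of the 9 promoters, against 32.7% of all promoters and 76.5% of the 9178 promoters with at least 60% G or C. Cxcl12 had 5 such boxes, Ebf3 3 and Foxc1 1. The Kitl promoter held the 1 TATA box (TATAAA) among the 9, starting 25 bases before its RefSeq start, where 12.4% of all promoters and 2.58% of those with at least 60% G or C hold these letters on either strand. The palindrome that EBF proteins bind, TCCC and GGGA with any 2 bases between, was in 0 of the 9 promoters, in 0.779% of all promoters and in 1.15% of those with at least 60% G or C. The forkhead core TGTTTA, on either strand, was in 0 of the 9, in 12% of all promoters and in 2.68% of those with at least 60% G or C. These counts say only which letters stand in these windows.

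Levels can be set side by side between genes once divided by exon length, as CPM per kilobase. Cxcl12 (66.9 CPM per kilobase on average over the 4 libraries) and Csf1 (57.6) led, and their ranges over libraries overlapped. Nes came next (27.6) and its range, 24.8 to 33.6 CPM per kilobase, overlapped neither that of Csf1 nor that of Vcam1, the gene after it (18.3). From Vcam1 down through Foxc1 (12.2), Kitl (11.8), Angpt1 (6.73), Grem1 (6.56) and Ebf3 (5.02), each gene's range overlapped the next. Lepr stood far below, at 0.474 CPM per kilobase with a range of 0.360 to 0.606. The transcript of the leptin receptor, which marks these stromal cells in mouse marrow, was thus the least abundant of the 10, with 44 to 80 counts per library.

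**Figure D1:**
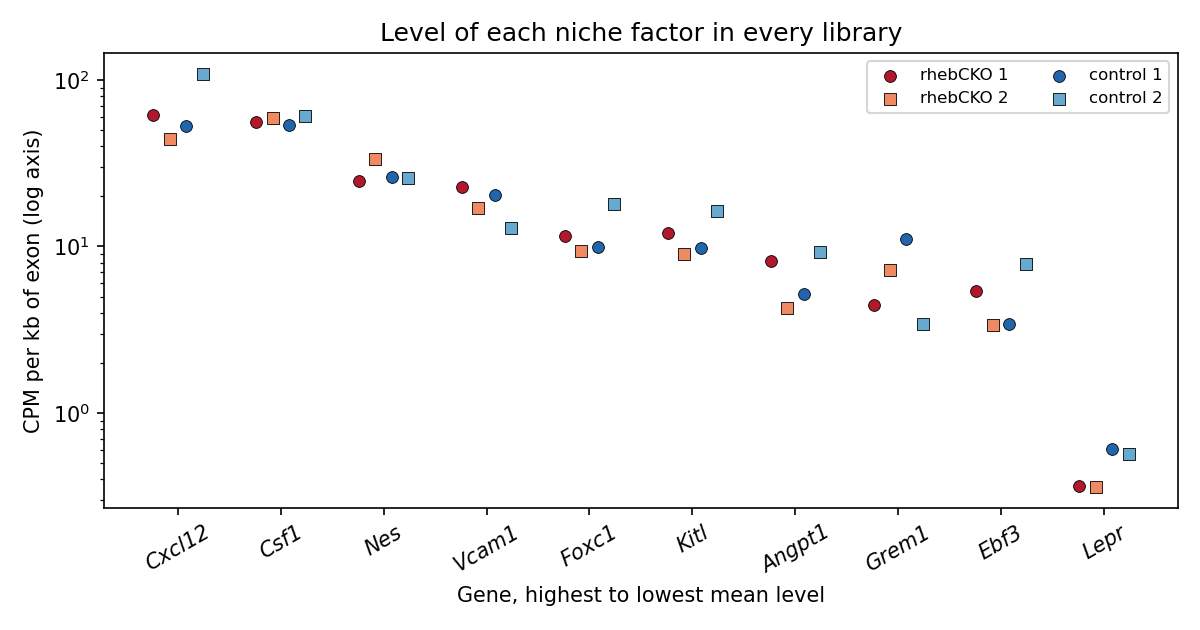
Level of each niche factor (vertical log axis, CPM per kilobase of exon) in each of the 4 libraries, genes ordered by mean level from left to right; circles are replicates 1 and squares replicates 2. Cxcl12 and Csf1 lead, Lepr lies between 0.360 and 0.606, and the 2 Lepr points of libraries labelled rhebCKO lie below both control points.

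None of the 10 genes passed edgeR's quasi-likelihood test between the groups (adjusted p = 1.00 for each over 14963 genes), and 0 had an unadjusted p under 0.05. Over all tested genes the test called 0, or 0%, and 1.86% had an unadjusted p under 0.05. DESeq2 called 23 genes (0.154%) and limma-voom called 0 (0%), with 0 of the 10 among the calls of either. Of the 10 genes, 7 had lower and 3 had higher fitted values in libraries labelled rhebCKO, where 51.2% of all genes had lower ones. Their median log2 fold change was -0.30, against -0.0070 over all tested genes. Without control replicate 2, 7 of the 10 genes had higher values and the median was 0.10. Without the replicate 2 labelled rhebCKO it was -0.075, without the replicate 1 labelled rhebCKO -0.55, and without control replicate 1 -0.61. Within replicate 1 the median log2 ratio, labelled rhebCKO over control, was 0.20, and within replicate 2 it was -0.74. With 2 libraries per group the p-values rest on a spread shared across genes, and the labels name 2 mice per group. In RNA from mixed cells, fewer stromal cells and less RNA per cell cannot be told apart.

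Cxcl12 (ENSMUSG00000061353; mm10, chromosome 6, 117168535 to 117181367, plus strand, protein coding), the chemokine gene that holds stem cells and B cell progenitors in marrow, had the highest mean level per length through control replicate 2. In libraries labelled rhebCKO its mean was 52.9 CPM per kilobase, against 57.7 for Csf1. It had 8867 and 6231 counts in libraries labelled rhebCKO, against 8073 and 16942 in control libraries, or 506 and 359 CPM against 431 and 892 CPM. Control replicate 2 stood above the other 3 libraries, and the groups overlapped. The mean was 433 ± 104 CPM in libraries labelled rhebCKO and 662 ± 326 CPM in control libraries (SD, n = 2 each), so the control spread was wider than the difference in means. The log2 fold change was -0.61 (SE 0.37, 95% interval -1.47 to 0.24). It was 0.016 without control replicate 2, -0.37 when the replicate 2 labelled rhebCKO was left out, -0.88 with the replicate 1 so labelled left out and -1.04 with control replicate 1 left out, and the log2 ratio of the same 2 groups was 0.23 for replicates 1 and -1.31 for replicates 2.

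Kitl (ENSMUSG00000019966; chromosome 10, 100015630 to 100100416, plus strand) encodes stem cell factor, the ligand of the receptor Kit on blood progenitors. It had 71.7 and 53.6 CPM in libraries labelled rhebCKO, against 57.8 and 96.8 CPM in control libraries. Control replicate 2 was again the highest and the groups overlapped. Its log2 fold change was -0.30 (SE 0.28, 95% interval -0.96 to 0.36), 0.13 without control replicate 2, -0.094 when the replicate 2 labelled rhebCKO was left out, -0.53 with the replicate 1 so labelled left out and -0.63 with control replicate 1 left out. Replicates 1 gave a log2 ratio of 0.31 and replicates 2 gave -0.85.

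Angpt1 (ENSMUSG00000022309; chromosome 15, 42424723 to 42676977, minus strand) encodes the ligand that activates the endothelial receptor Tek. It had 42.4 and 22.2 CPM in libraries labelled rhebCKO, against 27.0 and 48.5 CPM in control libraries. Each group held 1 high and 1 low library. The log2 fold change was -0.22 (SE 0.38, 95% interval -1.10 to 0.66), with 0.27 when control replicate 2 was left out, 0.18 when the replicate 2 labelled rhebCKO was, -0.76 when the replicate 1 so labelled was and -0.58 when control replicate 1 was. Replicates 1 gave a log2 ratio of 0.65 and replicates 2 gave -1.12. An antisense gene, Gm17473, shares 737 exon bases with Angpt1 and had 1 count in all. Because the library kit does not mark strand, reads in that stretch cannot be assigned to either gene.

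The transcription factor genes Ebf3 and Foxc1, which maintain Cxcl12 and Kitl expression in mouse marrow stroma, also had their highest value in control replicate 2. Ebf3 (ENSMUSG00000010476; chromosome 7, 137193673 to 137314445, minus strand) had 49.7 and 31.2 CPM in libraries labelled rhebCKO, against 31.4 and 72.8 CPM in control libraries. Foxc1 (ENSMUSG00000050295; chromosome 13, 31806633 to 31812476, plus strand) had 67.8 and 54.7 CPM in libraries labelled rhebCKO, against 57.9 and 105 CPM in control libraries. In both, control replicate 2 was highest and the remaining control library lay between those labelled rhebCKO. The log2 fold change of Ebf3 was -0.37 (SE 0.40, 95% interval -1.29 to 0.56), 0.37 without control replicate 2 and -0.056 when the replicate 2 labelled rhebCKO was left out. With the replicate 1 labelled rhebCKO left out it was -0.74, and with control replicate 1 left out -0.85. That of Foxc1 was -0.41 (SE 0.30, 95% interval -1.10 to 0.27), 0.090 without control replicate 2, -0.25 when the replicate 2 labelled rhebCKO was left out, -0.58 with the replicate 1 so labelled left out and -0.78 with control replicate 1 left out. Within replicate 1 the log2 ratios were 0.66 for Ebf3 and 0.23 for Foxc1, and within replicate 2 they were -1.22 and -0.94. The antisense gene Gm45278 shares 355 exon bases with Ebf3 and had 19 and 14 counts in libraries labelled rhebCKO, against 12 and 62 in control libraries. The library kit does not mark strand, so reads in the shared stretch cannot be assigned to one of the pair.

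Cxcl12, Kitl, Angpt1, Ebf3 and Foxc1 thus shared 1 order of libraries, a pattern noticed after their values were seen. Control replicate 2 was highest, then the replicate 1 labelled rhebCKO, then control replicate 1, and the replicate 2 labelled rhebCKO was lowest. Of all tested genes, 3.76% had this order. Control replicate 2 exceeded control replicate 1 by 1.68-fold (Kitl) to 2.32-fold (Ebf3), and 10.1% of tested genes had a ratio of at least that of Kitl. The replicate 1 labelled rhebCKO exceeded the replicate 2 by 1.24-fold (Foxc1) to 1.91-fold (Angpt1). The 5 genes were measured in the same 4 libraries, so they are not independent of each other. Of the 10 members, 6 were highest in control replicate 2, as were 27.2% of all tested genes, and 6 were lowest in the replicate 2 labelled rhebCKO, as were 26.6%. The other 5 members each had another order.

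**Figure D2:**
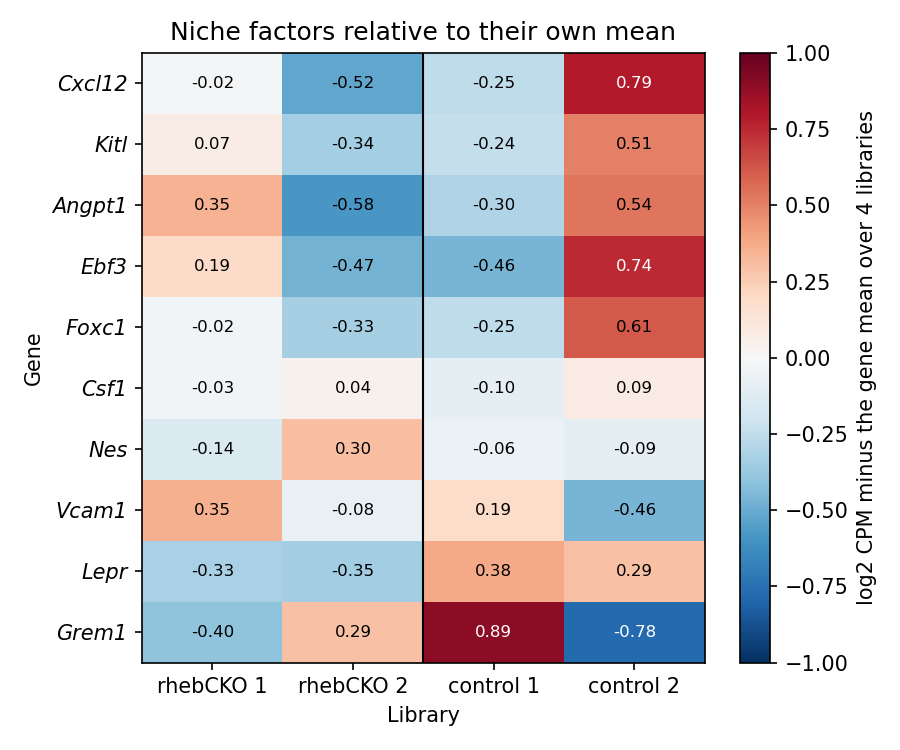
Log2 CPM of each niche factor minus its mean over the 4 libraries, with libraries in columns (those labelled rhebCKO left of the line, control right) and genes in rows. The top 5 rows share their highest value in control replicate 2 (0.51 to 0.79) and their lowest in the replicate 2 labelled rhebCKO, Csf1 stays within 0.10 of its mean, and Grem1 runs the other way (-0.78 in control replicate 2).

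Csf1 and Nes varied least. Csf1 (ENSMUSG00000014599; chromosome 3, 107741048 to 107760469, minus strand), the growth factor gene of the macrophage lineage, had 297 and 313 CPM in libraries labelled rhebCKO, against 284 and 322 CPM in control libraries. Its highest library was 1.14-fold above its lowest, and its log2 fold change was 0.01 (SE 0.21, 95% interval -0.49 to 0.51), which spans 0.714-fold to 1.42-fold. By replicate number the log2 ratios were 0.067 (1) and -0.043 (2). Nes (ENSMUSG00000004891; chromosome 3, 87971078 to 87980451, plus strand), the nestin gene, had 159 and 216 CPM in libraries labelled rhebCKO, against 168 and 164 CPM in control libraries. The replicate 2 labelled rhebCKO was highest and the other 3 lay close together. The log2 fold change of Nes was 0.17 (SE 0.22, 95% interval -0.34 to 0.69), and -0.050 without that library. For Nes, replicates 1 gave a log2 ratio of -0.081 and replicates 2 gave 0.39.

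Vcam1 and Grem1 were lowest in control replicate 2, where the order of Cxcl12 had its highest value. Vcam1 (ENSMUSG00000027962; chromosome 3, 116109949 to 116129688, minus strand), whose product binds the integrin of Itga4 on blood cells, had 203 and 151 CPM in libraries labelled rhebCKO, against 181 and 115 CPM in control libraries. In each group replicate 1 was the higher. Its log2 fold change was 0.26 (SE 0.27, 95% interval -0.38 to 0.89), 0.62 without control replicate 1 and -0.024 without control replicate 2. With the replicate 1 labelled rhebCKO left out it was 0.025, and with the replicate 2 so labelled left out 0.47. The log2 ratio was 0.17 between replicates 1 and 0.39 between replicates 2, so both were above 0. VCAM1 is also made by marrow macrophages and endothelial cells, and the share of Vcam1 reads from each cell type was not tested.

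Grem1 (ENSMUSG00000074934; chromosome 2, 113746164 to 113758646, minus strand), the BMP antagonist gene, had the widest range of the 10, with 3.21-fold between its extremes. It had 18.6 and 30.1 CPM in libraries labelled rhebCKO, against 45.8 and 14.3 CPM in control libraries. The control libraries held both extremes and enclosed the libraries labelled rhebCKO. The log2 fold change was -0.30 (SE 0.50, 95% interval -1.47 to 0.86), -0.90 with control replicate 2 left out, 0.77 with control replicate 1 left out, 0.0047 with the replicate 1 labelled rhebCKO left out and -0.68 with the replicate 2 so labelled left out. Replicates 1 gave a log2 ratio of -1.30 and replicates 2 gave 1.07. The genes whose centred log2 CPM came closest to Grem1 over the 4 libraries, among 12485 candidates, were Ifit3, Prg2, Ctsg, Qpct and Cldn15, with root-mean-square differences of 0.12, 0.12, 0.18, 0.19 and 0.21. Likeness over 4 libraries is a description of these libraries. The order of the libraries for Grem1 was also that of 7 of 10 neutrophil markers and 3 of 12 macrophage markers, against 3.65% of all tested genes. Ngp, a neutrophil granule gene, had 594 and 763 CPM in libraries labelled rhebCKO, against 820 and 304 CPM in control libraries. Ctsg and Prg2 are granule protein genes of granulocytes. The part of these cells in the Grem1 values was not tested.

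Lepr (ENSMUSG00000057722; chromosome 4, 101717404 to 101815352, plus strand), the leptin receptor gene, was the 1 member whose groups did not overlap, as was the case for 22.0% of all tested genes in either direction and 11.3% in the lower one. It had 45 and 44 counts in libraries labelled rhebCKO, against 80 and 76 counts in control libraries, or 2.57 and 2.54 CPM against 4.27 and 4.0 CPM. Both pairs of replicates lay close together. The log2 fold change was -0.70 (SE 0.36, 95% interval -1.54 to 0.15), with an unadjusted p of 0.0940 and an adjusted p of 1.00 by edgeR's quasi-likelihood test. Replicates 1 gave a log2 ratio of -0.71 and replicates 2 gave -0.64, and leaving out each library in turn gave log2 fold changes of -0.73 to -0.65. The difference was in the same direction in both replicate numbers but did not pass the test.

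**Figure D3:**
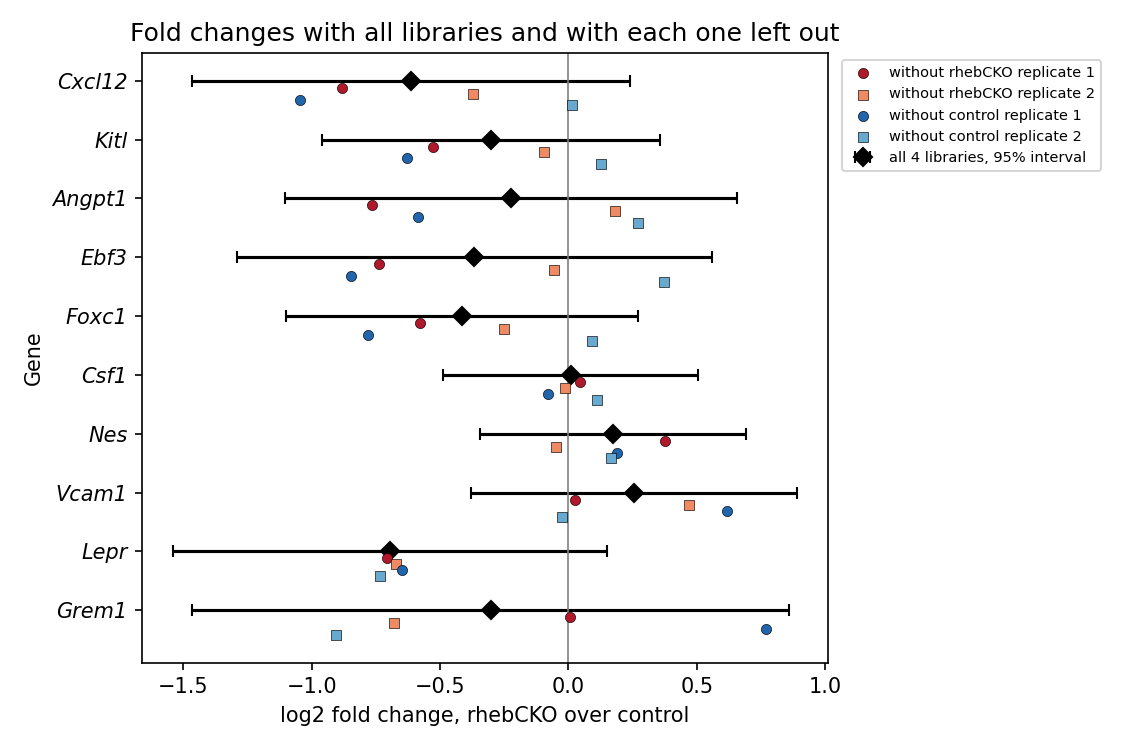
Log2 fold change of each niche factor, libraries labelled rhebCKO over control (horizontal axis), with all 4 libraries (diamonds, bars are 95% intervals) and with each library left out (coloured points). Every interval crosses 0, Cxcl12, Kitl, Angpt1, Ebf3 and Foxc1 lie above 0 once control replicate 2 is left out, and Lepr stays between -0.73 and -0.65.

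The receptors of these ligands are carried mostly by blood and endothelial cells. A list of 10 tested genes held them with related genes, among them Tie1 and Dpp4. Of the 10, 0 had the order of Cxcl12, which 3.76% of all tested genes had. Cxcr4, the receptor of CXCL12, had 117 and 146 CPM in libraries labelled rhebCKO, against 137 and 109 CPM in control libraries (log2 fold change 0.09, SE 0.22). Kit had 47.3 and 49.9 CPM in libraries labelled rhebCKO, against 38.8 and 33.9 CPM in control libraries (log2 fold change 0.42, SE 0.21), and the groups did not overlap. Itga4 had 76.0 and 65.7 CPM in libraries labelled rhebCKO, against 64.6 and 38.3 CPM in control libraries, and these groups did not overlap either. That made 2 of the 10 listed genes, against 22.0% of all tested genes. Tek and Csf1r had log2 fold changes of 0.25 (SE 0.27) and 0.11 (SE 0.27). Of the 10 listed genes, 8 had higher and 2 lower values, 0 passed the test and the median log2 fold change was 0.10. The adjusted p by edgeR was 1.00 for each of the genes named in this paragraph and in those that follow.

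Among 25 tested genes for other niche cytokines, 13 had higher and 12 lower values, with a median log2 fold change of 0.0016 and 0 passing the test. The smallest unadjusted p belonged to Ptn, the gene of pleiotrophin, a growth factor that acts on blood stem cells, with 23.0 and 16.9 CPM in libraries labelled rhebCKO, against 36.5 and 58.5 CPM in control libraries (log2 fold change -1.25, SE 0.30, unadjusted p = 0.00334 by edgeR over all genes, adjusted p = 1.00). Next was Bmp4, a BMP ligand gene, which had 15.7 and 11.8 CPM in libraries labelled rhebCKO, against 15.1 and 50.9 CPM in control libraries, so that control replicate 2 alone stood high. For Esm1, an endothelial proteoglycan gene, the log2 fold change was 0.43 (SE 0.19). Il7, the stromal cytokine gene for B cell progenitors, had 11.8 and 5.99 CPM in libraries labelled rhebCKO, against 7.31 and 8.58 CPM in control libraries, and was named after its values were seen.

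Among 11 tested genes listed with BMP ligands and antagonists, other than Grem1, 2 had higher and 9 lower values (median log2 fold change -0.28, 0 passing). The 11 include Bmp1 (log2 fold change -0.10), whose product is a protease and not a BMP ligand. Of the 11, 9 were highest in control replicate 2, as were 27.2% of all tested genes. Bmp4, Fst, Fstl1 and Chrd had the order of Cxcl12, 36.4% of the list against 3.76% of all tested genes. Fst, the gene of the BMP and activin antagonist follistatin, had 38.0 and 24.3 CPM in libraries labelled rhebCKO, against 34.5 and 73.7 CPM in control libraries.

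Stromal transcription factors outside the 10 had 7 higher and 14 lower values among 21 tested (median log2 fold change -0.05, 0 passing). Runx1 and Runx2 had the order of Cxcl12 and are named for it. Ebf1, a relative of Ebf3 that B cells also express, had 86.7 and 60.4 CPM in libraries labelled rhebCKO, against 69.3 and 86.1 CPM in control libraries, and was named after its values were seen. Sox9, a skeletal progenitor factor gene, had 6.91 and 6.45 CPM in libraries labelled rhebCKO, against 8.17 and 24.7 CPM in control libraries. Prrx2 and Msx1, limb mesenchyme factor genes, had log2 fold changes of -1.17 (SE 0.47) and -0.72 (SE 0.45). Sox9, Prrx2 and Msx1 were highest in control replicate 2, as were 7 of the 21 genes of the list and 27.2% of all tested genes.

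Stromal marker lists shared the high values in control replicate 2. The order of Cxcl12 was that of 4 of 22 reticular (18.2%), 1 of 12 fibroblast (8.33%) and 2 of 9 osteoblast markers (22.2%). Among all tested genes it was that of 3.76%. The reticular and fibroblast medians of log2 CPM minus the gene mean were lowest in control replicate 1 (-0.28 and -0.19). Those of osteoblast markers and niche factors were lowest in the replicate 2 labelled rhebCKO (-0.38 and -0.34). Reticular cell markers had 7 higher and 15 lower values among 22 tested (median -0.10, 0 passing), and 15 were highest in control replicate 2, as were 27.2% of all tested genes. In that list Cspg4 had a log2 fold change of 0.89 (SE 0.30), Dcn of -0.84 (SE 0.34) and Igfbp5 of -1.25 (SE 0.55). Fibroblast markers had 2 higher and 10 lower values among 12, and osteoblast markers 1 higher and 8 lower among 9. In control replicate 2 the median of log2 CPM minus the gene mean was 0.40 for the 10 niche factors, 0.38 for reticular, 0.38 for fibroblast and 0.44 for osteoblast markers. There it was -0.30 for macrophage and -1.03 for neutrophil markers. The stromal lists are not independent, because they share genes. Pdgfra, Pdgfrb and Dcn are in the reticular and fibroblast lists, and Col1a1 and Col1a2 in the fibroblast and osteoblast lists. Genes with the order of Cxcl12 also recur between lists. Fst is in the reticular and BMP lists, Runx2 in the osteoblast and transcription factor lists, and Bmp4 in the BMP and cytokine lists. Phex, the other osteoblast marker with that order, had 11 and 4 counts in libraries labelled rhebCKO, against 10 and 25 in control libraries. Alpl, an osteoblast enzyme gene, had 24.6 and 20.5 CPM in libraries labelled rhebCKO, against 34.7 and 122 CPM in control libraries. The part of the makeup of cells in the niche factor values was not tested. Among genes that reticular stroma and adipocytes both express, Lpl had 1223 and 1556 CPM in libraries labelled rhebCKO, against 1468 and 542 CPM in control libraries, while Adipoq had 1.26 and 1.09 CPM in libraries labelled rhebCKO, against 0.534 and 1.0 CPM in control libraries.

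**Figure D4:**
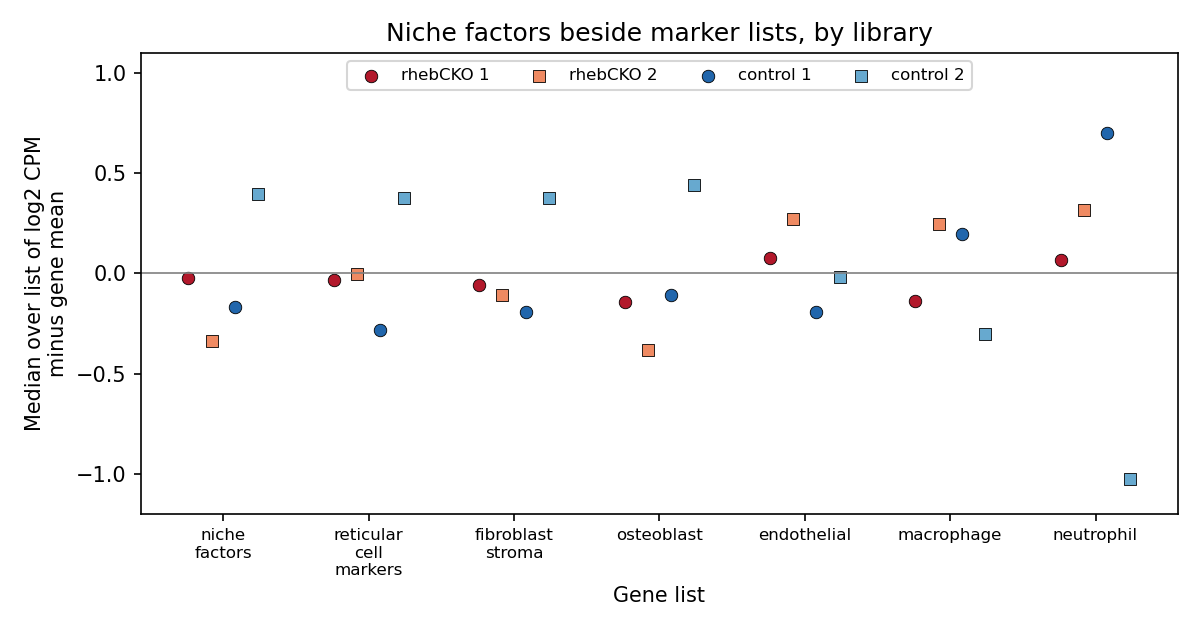
Median over each gene list of log2 CPM minus the gene mean (vertical axis), by library, for the 10 niche factors and 6 marker lists; libraries labelled rhebCKO stand left of control libraries. Control replicate 2 is highest for niche factors (0.40), reticular, fibroblast and osteoblast markers, and lowest for neutrophil markers (-1.03).

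Markers of blood and vessel cells were compared in the same way. Endothelial markers had 12 higher and 0 lower values among 12 tested (median 0.25, 0 passing), led by Ptprb with a log2 fold change of 0.65 (SE 0.22). Macrophage markers had 8 higher and 4 lower among 12 (median 0.08), and neutrophil markers 9 higher and 1 lower among 10 (median 0.14), with 0 passing in either list. B cell markers had 2 higher and 8 lower among 10 (median -1.57, 0 passing). Ighm had 55.0 and 23.3 CPM in libraries labelled rhebCKO, against 364 and 111 CPM in control libraries. In these 4 lists 0 tested genes had the order of Cxcl12, which 3.76% of all tested genes had.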

How the data were processed

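Per the file headers and the values, the deposited file gives raw read counts as whole numbers, beside exon length, for 54532 Ensembl genes. The submitters' processing notes list Trimmomatic, HISAT2, featureCounts and mm10 with no versions. Neither the annotation release nor the handling of multi-mapped reads is given in the sources used here. GENCODE M21 was compared, and 54409 gene IDs were in it, 98.3% of them at the same coordinates. Groups came from sample titles. The members and lists were chosen with earlier results of these data known.

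Counts were tested with edgeR 4.0.16 in R 4.3.3 (filterByExpr, TMM, quasi-likelihood F-test, group as sole term, Benjamini-Hochberg at 0.05 over all tested genes). The procedure was checked on simulated counts with a common dispersion for all genes. That simulation held no split such as that of Xist and Ddx3y, so it does not measure power in these libraries. The standard error was the absolute log2 fold change over the square root of F. CPM are TMM-scaled, single-library ratios used CPM + 0.1, and a prior count of 2 entered the log2 CPM that were centred. A count of 0 allows 3 counts, 0.158 to 0.173 CPM, for counting error alone. Between replicates, 44.0% (rhebCKO) and 45.5% (control) of tested genes differed by over 3 counting SDs.

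Named were the 10 members, their receptors, Rheb, up to 3 genes per list by smallest p, and 5 genes closest to the widest-ranging member of mean log2 CPM at least 1. Other genes, among them Runx1, Runx2, Fstl1, Chrd, Il7, Ebf1, Lpl, Thy1, S100a4, Pdgfrb, Lyz2, Phex, Col1a1 and Col1a2, were chosen after their values were seen. Alternatives were DESeq2's size factors, scaling by totals, other filters, DESeq2 1.42.0, limma-voom (limma 3.58.1), a replicate block, each library left out and a threshold of 0.1. RefSeq promoters (GRCm38.p6) were matched by symbol. Figures were drawn with matplotlib 3.10.9.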

Additional observations from a re-analysis of the deposited data

How the results depend on the processing

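Under the alternatives to the main test, 97 of 109 log2 fold changes of members kept their direction and 12 reversed, all 12 when a library was left out, and 0 were called. DESeq2 called 23 genes over all genes against 0 by edgeR. Leaving out each library gave 0 to 183 called genes, 0 called members in every case, 2 to 7 members higher in libraries labelled rhebCKO and a member median of -0.61 to 0.10. The called genes numbered 183 without control replicate 1 and 21 without control replicate 2, and the cause was not tested. In these fits the lone library of a group is assumed to vary like the others. Its group also lacks the Xist and Ddx3y pattern of the library left out, while the other group holds both patterns. Group and that pattern therefore cannot be fully told apart in these fits. Log2 fold changes over these fits ran from -1.04 to 0.016 for Cxcl12, -0.63 to 0.13 for Kitl, -0.76 to 0.27 for Angpt1, -0.85 to 0.37 for Ebf3, -0.78 to 0.090 for Foxc1, -0.080 to 0.11 for Csf1, -0.050 to 0.38 for Nes, -0.024 to 0.62 for Vcam1 and -0.90 to 0.77 for Grem1. With the replicate block edgeR called 0 genes (382 with an unadjusted p under 0.05), 3 members were higher and their median was -0.25. Deviations of same-numbered libraries from their group means correlated at 0.25 across genes, and at 0.18 without X and Y genes. The labels name littermates but tie no number to a litter or batch, so the numbers are not taken as pairs. The filter of 5 CPM left 9 members, without Lepr. At an adjusted p of 0.1, 0 genes were called.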

Other observations

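Genes of leptin signalling had 5 higher and 6 lower values in libraries labelled rhebCKO among 11 tested (median log2 fold change -0.10, 0 passing edgeR's quasi-likelihood test, adjusted p = 1.00), and Lep, the leptin gene, had 0 counts in all 4 libraries. Socs3, a feedback inhibitor gene of cytokine receptors, had 21.6 and 38.7 CPM in libraries labelled rhebCKO, against 29.5 and 80.3 CPM in control libraries. Irs1 and Irs2, adaptor genes of the insulin receptor, had log2 fold changes of -0.48 (SE 0.46) and 0.21 (SE 0.21).

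Adipocyte markers had 5 higher and 2 lower values among 7 tested (median 0.47, 0 passing). Plin1, a lipid droplet coat gene, had 0.971 and 1.38 CPM in libraries labelled rhebCKO, against 0.374 and 0.579 CPM in control libraries. Smooth muscle and pericyte markers had 5 higher and 5 lower among 10 (median 0.03), with Des at -0.79 (SE 0.33). Glial markers had 3 of 7 listed genes with enough reads to test, 1 higher and 2 lower (median -0.37), and S100b had 0.628 and 0.230 CPM in libraries labelled rhebCKO, against 0.747 and 2.37 CPM in control libraries.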
